A study of Homo sapiens with 6 samples.

Results

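The genes described here are the interleukins and interleukin receptors, taken as every row of the deposited expression table whose gene symbol starts with IL and a digit, 85 of the 24580 rows in all. By function they are 39 ligands, 41 receptor chains, 4 antagonists or binding proteins and IL4I1, an amino acid oxidase that is named after interleukin 4 but is no interleukin. The rule is one of names, so related cytokines with other symbols, such as CXCL8 and TSLP, fall outside it. Messenger RNA was sequenced in LoVo, an established human colorectal cancer line labelled wildtype, and in LoVo-HM, labelled as a subline of LoVo with high metastatic capacity. Each line had 3 libraries (6 in all), and neither was treated. How the subline was obtained, and whether it is a single clone, is not given in the labels, so a difference between the lines is one between 2 cell stocks. The labels also do not say whether the 3 libraries of a line came from separate cultures, so p-values measure the spread between these libraries, which may be technical.

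Interleukins are secreted signals that cells of the immune system and of epithelia use to address each other. A ligand binds a receptor made of different chains, most often a private chain that recognises it and a shared chain that several receptors use, and both must be on the cell for it to respond. Receptors of the IL-6, IL-10, IL-12 and common gamma chain families signal through Janus kinases and STAT factors, whereas receptors of the IL-1 and IL-17 families signal through adaptor proteins to NF-kB and the MAP kinases. In the gut, epithelial cells make IL-18 and other members of the IL-1 family and respond to IL-22, IL-17 and IL-6 from immune cells, which act on repair, antimicrobial defence and growth.

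The values are FPKM, fragment counts divided by transcript length and library size, so levels of different genes can be compared per length. A level is given as the mean FPKM of a line ± SD (n = 3). A difference is the mean of LoVo-HM less that of LoVo, ± SE, in units of log2(FPKM + 1), a scale that understates the change of low genes. Tests used limma, and p-values were adjusted by the Benjamini-Hochberg method across all 14487 rows that averaged 0.5 FPKM or more. A gene passed at an adjusted p under 0.05. Library totals ran from 424624 to 439082 FPKM, and the read depth is unknown. Of 12 markers of colon epithelium 6 were tested, of which CDX2, KRT8, KRT18, KRT19 and KRT20 rose and EPCAM fell. CDX2 was at 8.39 ± 0.129 FPKM in LoVo and 14.7 ± 0.960 in LoVo-HM, KRT19 at 105 ± 6.81 and 389 ± 11.4, and EPCAM at 128 ± 1.99 and 51.7 ± 2.60. The other 6 were at or near 0 in both lines. VIL1, CDX1 and GPA33 were listed at 0 in all 6 libraries, CEACAM5 at 0.0508 and 0 FPKM, CDH17 at 0 and 0.0144 and LGALS4 at 0.121 and 0.131. KRT20 was listed at 0 in LoVo and stood at 2.92 ± 0.475 in LoVo-HM. Of 12 leukocyte markers, PTPRC, CD3D, CD2 and KIT were at 0 in every library, and only CD68 (3.44 ± 0.0379 and 2.55 ± 0.265 FPKM) was high enough to test. Summed over the 12 markers the level was 3.96 to 4.13 FPKM in LoVo and 2.92 to 3.39 in LoVo-HM. In bulk RNA, fewer cells with a transcript and less of it per cell cannot be told apart.

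Of the 85 genes, 33 reached a mean of 0.5 FPKM in either line, 32 of them in LoVo and 29 in LoVo-HM. A further 25 had some signal but stayed under 0.5 FPKM in both lines, and 27 were listed at 0 in all 6 libraries. Receptors made up most of the expressed set: 26 of 41 receptor chains reached the level, against 6 of 39 ligands. Of the 30 genes high enough to test, 19 (63.3%) fell in LoVo-HM, none rose and 11 did not pass the threshold in limma's test. Among all tested rows 44.9% passed, 23.1% falling and 21.8% rising. No member was higher even at an unadjusted p under 0.05, and 21 were lower at that level. The median difference of the 30 was -0.42, where that of all tested rows was 0.003. The libraries of the lines did not overlap for 20 members that were lower and for 1 that was higher (the IL-3 receptor chain IL3RA), where the shares of all tested rows were 27.9% and 27.1% (55.0% in either direction).

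Most of the changes were moderate. A fall of at least 2-fold, meaning a log2 difference of -1 or beyond on this scale, was seen in 4 members, IL18, IL1R2, IL20RA and IL17RE, and in 4.18% of all tested rows. No member rose that far, as 2.37% of all tested rows did. Adding 0.1 FPKM instead of 1 before taking logs gave 8 such members, with IL6R, IL22RA1, IL17D and IL23A joining, and the share of all tested rows was 6.76%. The genes that differ between these counts are those expressed at a few FPKM, for which adding 1 compresses the difference.

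**Figure D1:**
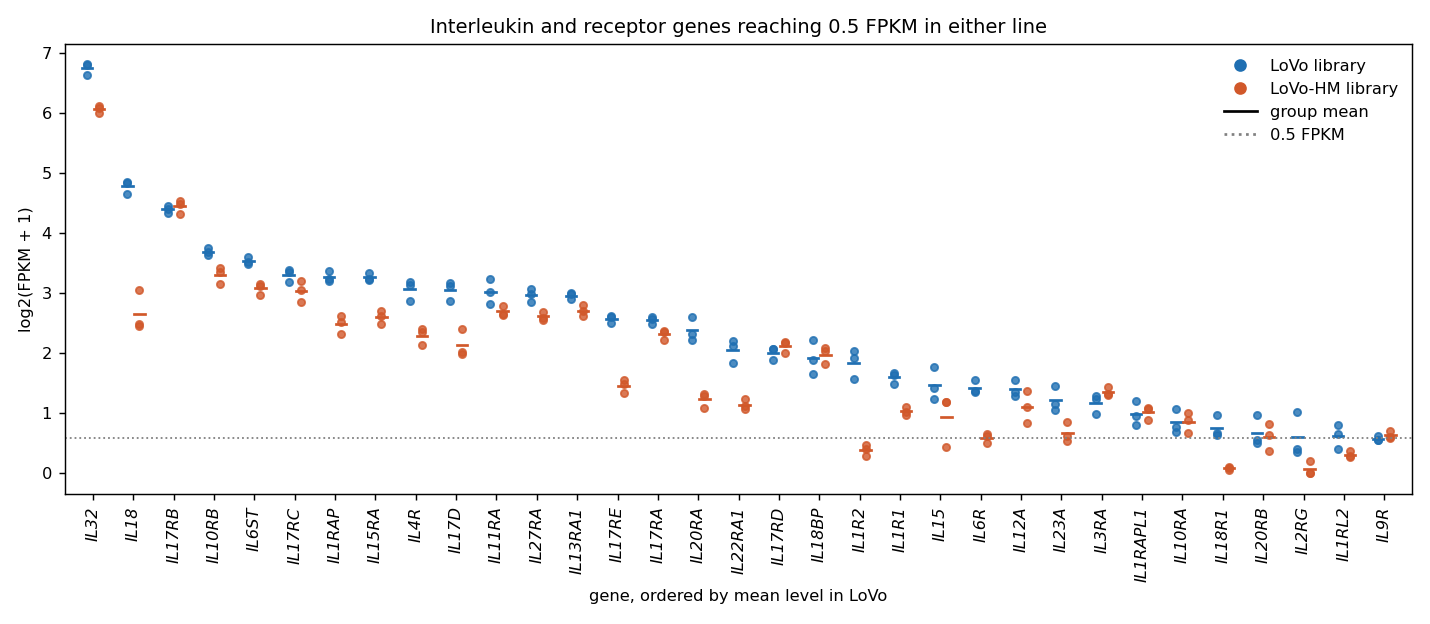
Each point is the level of 1 gene in 1 library as log2(FPKM + 1), with LoVo and LoVo-HM side by side, bars at the group means and a dotted line at 0.5 FPKM. IL32 is the highest gene in both lines, IL18 drops from 26.5 to 5.45 FPKM, and IL17RB is at 20.0 and 20.8 FPKM.

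**Figure D2:**
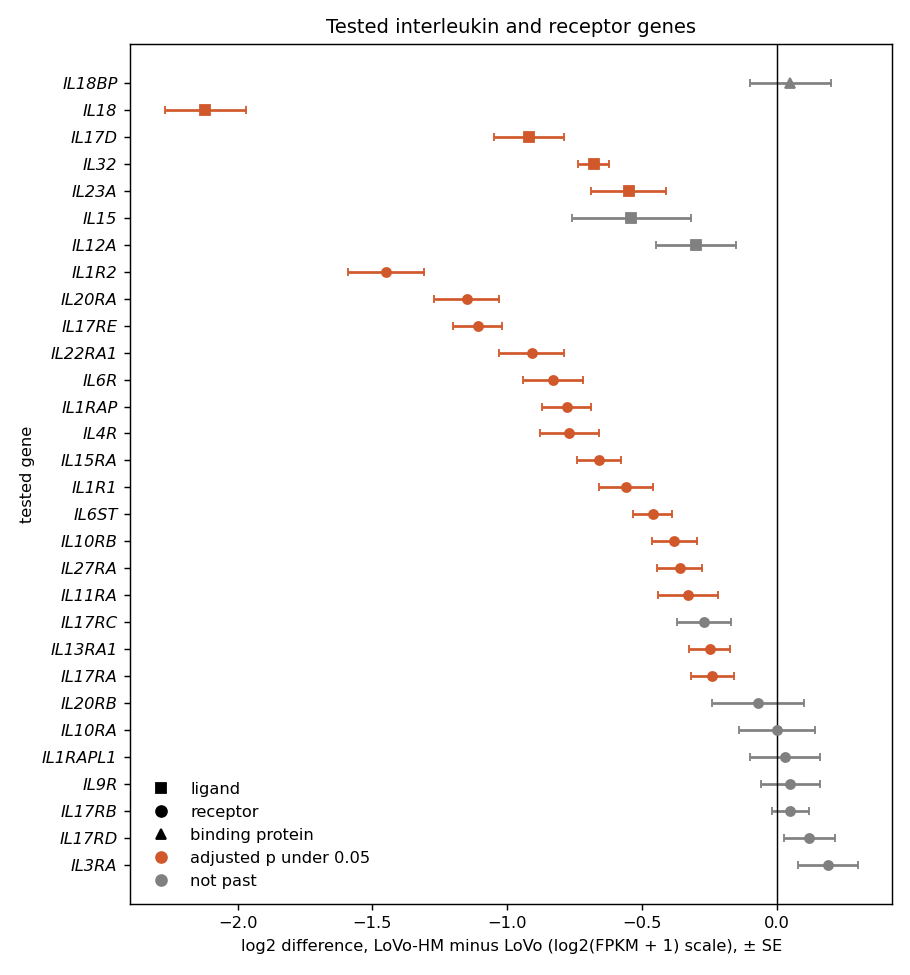
Differences between the lines (LoVo-HM minus LoVo, log2(FPKM + 1) scale, bars ± SE, n = 3 libraries per line) for the 30 tested genes, by kind. The 19 coloured genes passed an adjusted p of 0.05 and all lie left of 0.

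Among the ligands, IL32 and IL18 were the 2 highest in LoVo. IL32, a proinflammatory cytokine made by epithelial and lymphoid cells (ENSG00000008517, chromosome 16, 3065297 to 3082192, GRCh38), was at 110, 111 and 98.2 FPKM in the LoVo libraries and at 63.2, 66.6 and 68.6 in LoVo-HM. Every LoVo-HM library lay below every LoVo library, and IL32 was still the highest of all 85 genes in both lines. The means were 106 ± 7.10 and 66.2 ± 2.72 FPKM, and IL32 fell (-0.68 ± 0.058, limma adjusted p = 2.82e-05).

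IL18, an IL-1 family cytokine that epithelial cells store as an inactive precursor and that induces interferon gamma in lymphocytes (ENSG00000150782, chromosome 11, 112143251 to 112164117), had the largest fall of the tested members on the log2(FPKM + 1) scale, although IL1R2 exceeded it with 0.1 FPKM added (-2.72, against -2.30 for IL18). IL18 was at 27.7, 24.2 and 27.6 FPKM in LoVo and at 7.27, 4.59 and 4.47 in LoVo-HM. The lines were far apart, with LoVo-HM replicate 1 somewhat above the other two. The mean fell from 26.5 ± 1.98 to 5.45 ± 1.58 FPKM, a 4.87-fold lower level (-2.12 ± 0.15, limma adjusted p = 7.75e-06), which moved IL18 from rank 2 to rank 8 among the 85 genes. CASP1, the protease that cuts the IL-18 precursor into its active form, fell from 5.53 ± 0.494 to 0.229 ± 0.0940 FPKM (-2.41 ± 0.10). IL18BP, the secreted protein that binds and neutralises IL-18, stood at 2.84 ± 0.761 FPKM in LoVo and 2.95 ± 0.380 in LoVo-HM with overlapping libraries (0.05 ± 0.15, limma adjusted p = 0.788). Of the exon bases of IL18BP, 15.6% are shared with NUMA1 on the opposite strand. The strand setting of the counting is not given in the sources used here, so reads of the 2 genes may be mixed.

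Other ligands were expressed at a few FPKM. IL17D, an IL-17 family cytokine of non-immune tissues, was at 7.66, 6.32 and 8.01 FPKM in LoVo and 3.06, 2.98 and 4.26 in LoVo-HM. Its groups did not overlap and its mean fell from 7.33 ± 0.891 to 3.43 ± 0.715 FPKM (-0.92 ± 0.13, limma adjusted p = 0.000505), although 39.0% of its exon bases are shared with an antisense transcript. IL23A, the private subunit of IL-23, was at 1.22, 1.74 and 1.08 FPKM in LoVo and at 0.535, 0.806 and 0.447 in LoVo-HM, again without overlap (-0.55 ± 0.14, limma adjusted p = 0.0129). Its partner IL12B, without which neither IL-23 nor IL-12 is assembled, was listed at 0 in every library.

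IL12A, the private subunit of IL-12, was at 1.95, 1.56 and 1.45 FPKM in LoVo and at 1.59, 0.781 and 1.14 in LoVo-HM. The libraries overlapped, and it did not pass (-0.30 ± 0.15, limma adjusted p = 0.134). Without LoVo-HM replicate 1 its adjusted p was 0.0420. IL15, which sustains natural killer and memory T cells, was at 1.37, 1.67 and 2.40 FPKM in LoVo and at 1.28, 0.354 and 1.27 in LoVo-HM. The lines just failed to overlap, the LoVo-HM libraries were spread widely, and IL15 did not pass (-0.54 ± 0.22, limma adjusted p = 0.0758).

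The classical inflammatory cytokines were near or at 0. IL1A, released by damaged epithelium, was at 0.288, 0.1 and 0.0508 FPKM in LoVo and listed at 0 in LoVo-HM. IL1B was at 0.165, 0 and 0 FPKM in LoVo and 0.368, 0.101 and 0 in LoVo-HM, and IL6 at 0, 0 and 0.187 against 0.371, 0.0827 and 0.0745. Neither of these latter genes separated the lines. IL11, a relative of IL-6, was detected in 1 library of each line, at 0.106 FPKM in LoVo and 0.0649 in LoVo-HM. IL1RN, the natural antagonist of the IL-1 receptor, was at most 0.0590 FPKM in LoVo and listed at 0 in LoVo-HM. Ligands listed at 0 in all 6 libraries included the T cell growth factors IL2 and IL21, IL3, IL10 and its relatives IL19, IL20, IL22 and IL26, the IL-17 family members IL17A, IL17F and IL25, and IL12B, IL27, IL31, IL36A and IL36B. The antagonists IL36RN and IL1F10 were also at 0, as were the receptor chains IL18RAP, IL1RAPL2, IL1RL1, IL12RB1, IL23R, IL31RA, IL5RA, IL13RA2 and IL2RA.

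The 25 genes with some signal but under 0.5 FPKM in both lines had no single value above 0.628 FPKM, and the 5 highest of them were IL7, IL4I1, IL12RB2, IL7R and IL6. IL4I1 was at 0.428 ± 0.108 FPKM in LoVo and 0.172 ± 0.0705 in LoVo-HM, without overlap, and passed in a fit without a filter on low values (limma adjusted p = 0.0347). It shares 13.1% of its exon bases with NUP62. IL7, a growth factor of lymphocytes made by epithelium, fell just short of the level. It was at 0.468, 0.394 and 0.628 FPKM in LoVo and at 0.0743, 0.0528 and 0.0474 in LoVo-HM, so that every LoVo library was above every LoVo-HM library. Its receptor chain IL7R went the other way at a lower level, with 0.0124, 0.0213 and 0.0246 FPKM in LoVo and 0.241, 0.159 and 0.240 in LoVo-HM. In the same fit IL7 fell (-0.50, limma adjusted p = 0.00238) and IL7R rose (0.25, limma adjusted p = 0.00606), where 16.4% and 15.1% of 20954 rows fell and rose. IL7R was the only member that rose in any fit run. The IL-12 receptor chain IL12RB2 was also higher without overlap, at 0.118 FPKM in LoVo and 0.253 in LoVo-HM, but did not pass in that fit (limma adjusted p = 0.0805).

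Of the 4 tested receptor chains of the IL-1 family, IL1R2, IL1R1 and IL1RAP fell and IL1RAPL1 did not pass (all tested rows: 23.1% fell). IL1R2, a decoy that captures IL-1 without signalling (ENSG00000115590, chromosome 2, 101991844 to 102028544), was at 2.79, 1.97 and 3.09 FPKM in LoVo and at 0.381, 0.228 and 0.323 in LoVo-HM. The lowest LoVo library was several times the highest LoVo-HM library, and the mean fell from 2.62 ± 0.580 to 0.311 ± 0.0776 FPKM (-1.45 ± 0.14, limma adjusted p = 4.65e-05). IL1R1, the chain that binds IL-1 and signals (ENSG00000115594), was at 1.79, 2.12 and 2.18 FPKM against 1.04, 1.14 and 0.968 (-0.56 ± 0.099, limma adjusted p = 0.00183). IL1RAP, the accessory chain shared by the receptors for IL-1, IL-33 and IL-36 (ENSG00000196083, chromosome 3), was at 8.24, 9.33 and 8.38 FPKM against 5.12, 4.73 and 4.01 (-0.78 ± 0.092, limma adjusted p = 0.000190). Neither gene's libraries overlapped between the lines. IL1RAPL1, a relative that acts at neuronal synapses, was at 0.996 ± 0.291 and 1.03 ± 0.153 FPKM and did not pass (0.03 ± 0.13, limma adjusted p = 0.863).

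IL1R2 and IL1R1 lie in a cluster of 6 receptor genes that spans 461 kb of chromosome 2, all on the same strand. In chromosomal order the other 4 are IL1RL2 (the IL-36 receptor), IL1RL1 (the IL-33 receptor), IL18R1 (which binds IL-18) and IL18RAP (its accessory chain). IL18R1 was at 0.950, 0.586 and 0.560 FPKM in LoVo and at 0.0421, 0.0683 and 0.0734 in LoVo-HM, and IL1RL2 at 0.740, 0.328 and 0.575 against 0.208, 0.219 and 0.296. Both were separated between the lines but were too low on average for the fit. IL1RL1 and IL18RAP were listed at 0 in all 6 libraries. With the filter set at 0.5 FPKM in either line, which lets such genes in only through the line where they are high, IL18R1 passed (-0.67 ± 0.12, limma adjusted p = 0.00263) and IL1RL2 did not (-0.31, limma adjusted p = 0.0827). In that fit 23.3% of 15112 rows fell and 21.9% rose. All 4 detected genes of the cluster thus had lower levels in every LoVo-HM library than in any LoVo library. The same held for 27.9% of all rows tested in the main comparison.

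The genes on either side were looked up after these values were seen. MAP4K4, a kinase on the IL1R2 side, was at 37.2 ± 6.21 FPKM in LoVo and 44.5 ± 2.32 in LoVo-HM and did not pass (0.26 ± 0.10, limma adjusted p = 0.0704). On the far side SLC9A4, a sodium-proton exchanger, was at 0.215 ± 0.0785 FPKM in LoVo and listed at 0 in LoVo-HM, and its relative SLC9A2 fell from 8.93 ± 0.916 to 0.148 ± 0.0485 FPKM (-3.11 ± 0.097, limma adjusted p = 4.09e-08). SLC9A4 was too low to test, so on that side only SLC9A2 passed, where 23.1% of all tested rows fell. Whether its fall is linked to those in the cluster was not tested.

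**Figure D3:**
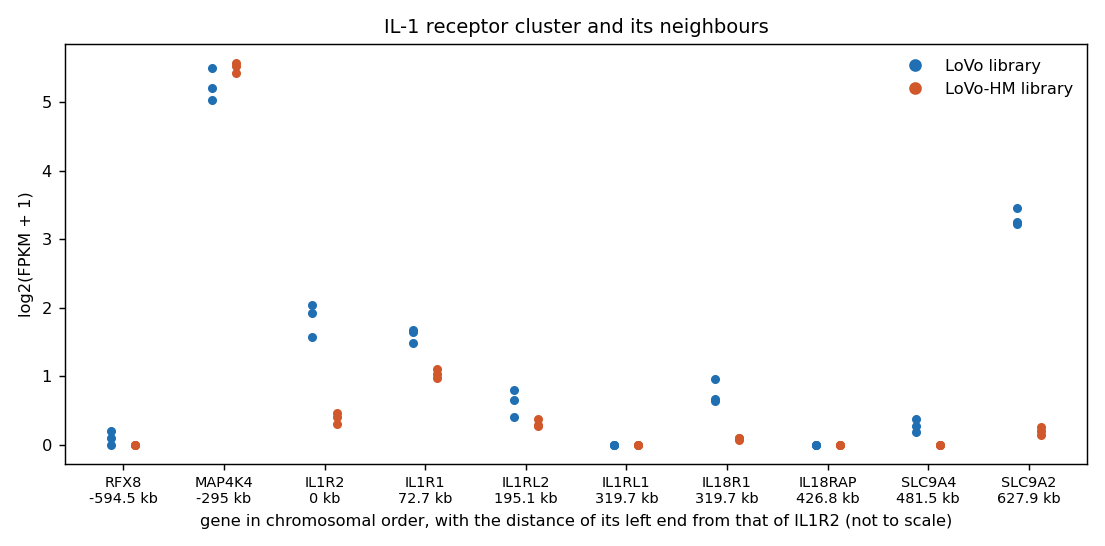
Levels per library, as log2(FPKM + 1), of the 6 genes of the IL-1 receptor cluster on chromosome 2 and the 2 table genes on each side, in chromosomal order with the distance from IL1R2 under each name. Points of LoVo-HM lie below those of LoVo for IL1R2, IL1R1, IL1RL2 and IL18R1, and also for SLC9A4 and SLC9A2.

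All 3 tested receptor chains of the IL-6 family fell, where 63.3% of the tested members and 23.1% of all tested rows fell. IL6R, the chain that binds IL-6 (ENSG00000160712, chromosome 1, 154405193 to 154469450), was at 1.92, 1.58 and 1.55 FPKM in LoVo and at 0.535, 0.574 and 0.420 in LoVo-HM. It fell from 1.68 ± 0.204 to 0.510 ± 0.0801 FPKM, a 3.30-fold lower level (-0.83 ± 0.11, limma adjusted p = 0.000324). IL6ST, the shared signalling chain also called gp130 (ENSG00000134352, chromosome 5), changed less, from 10.4, 10.2 and 11.1 FPKM to 7.86, 6.85 and 7.70 (-0.46 ± 0.072, limma adjusted p = 0.00108). The IL-6 binding chain was therefore below the shared chain in both lines. IL11RA, which binds IL-11, was at 6.09, 7.12 and 8.40 FPKM in LoVo and 5.90, 5.25 and 5.30 in LoVo-HM (-0.33 ± 0.11, limma adjusted p = 0.0342). Its lines were separated only narrowly, and it did not pass without LoVo replicate 2 (adjusted p = 0.0780), LoVo replicate 3 (0.0997), LoVo-HM replicate 2 (0.0923) or LoVo-HM replicate 3 (0.0863). IL11RA also missed the threshold after quantile normalization (0.0675) and without a filter on low values (0.0747). IL27RA, which is classed with the IL-12 family but pairs with IL6ST to bind IL-27, fell from 6.84 ± 0.625 to 5.12 ± 0.317 FPKM (-0.36 ± 0.084, limma adjusted p = 0.00841).

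Of the 4 tested receptor chains of the common gamma chain family and IL-13, IL4R, IL13RA1 and IL15RA fell and IL9R did not pass. Among all tested rows 23.1% fell. IL4R, the chain that binds IL-4 (ENSG00000077238, chromosome 16, 27313668 to 27364778), was at 7.78, 6.31 and 8.13 FPKM in LoVo and 4.09, 4.26 and 3.39 in LoVo-HM (-0.77 ± 0.11, limma adjusted p = 0.000545). IL13RA1, with which IL4R forms the receptor for IL-4 and IL-13 outside the blood lineages, was at 6.98, 6.46 and 6.90 FPKM against 5.96, 5.51 and 5.13. Its difference was smaller (-0.25 ± 0.076, limma adjusted p = 0.0243) and did not pass without LoVo replicate 1 (adjusted p = 0.0732), LoVo replicate 3 (0.0679), LoVo-HM replicate 2 (0.0561) or LoVo-HM replicate 3 (0.0715), nor after quantile normalization (0.0632). IL15RA, which presents IL-15 to neighbouring cells, fell from 9.04, 8.28 and 8.46 FPKM to 5.16, 4.59 and 5.51 (-0.66 ± 0.080, limma adjusted p = 0.000217).

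The common gamma chain itself, IL2RG, was low and uneven. It was at 0.282, 0.327 and 1.04 FPKM in LoVo and at 0, 0.151 and 0 in LoVo-HM, so its mean of 0.549 in LoVo rests on LoVo replicate 3. It was not tested in the main comparison and had an adjusted p of 0.0468 in limma with the filter set in either line and of 0.0792 without a filter. The filter in either line lets IL2RG in only through LoVo, where it is higher, so passing there is weak evidence. IL2RG shares 50.8% of its exon bases with an overlapping gene on the same strand. IL9R was at 0.536, 0.475 and 0.471 FPKM in LoVo and 0.523, 0.636 and 0.497 in LoVo-HM, overlapping between the lines (0.05 ± 0.11, limma adjusted p = 0.703). IL9R has near-identical pseudogene copies, so its value is uncertain. IL3RA, the IL-3 binding chain, was at 0.975, 1.37 and 1.44 FPKM in LoVo and 1.72, 1.51 and 1.48 in LoVo-HM. This narrow separation was the only one in the upward direction among tested members, and it did not pass (0.19 ± 0.11, limma adjusted p = 0.214).

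Of 5 tested receptor chains of the IL-10 family, IL20RA, IL22RA1 and IL10RB fell, and IL10RA and IL20RB did not pass (all tested rows: 23.1% fell). IL20RA (ENSG00000016402, chromosome 6, 136999971 to 137045180) was at 4.02, 5.04 and 3.64 FPKM in LoVo and at 1.45, 1.12 and 1.5 in LoVo-HM. It fell 3.12-fold (-1.15 ± 0.12, limma adjusted p = 9.96e-05), with a wide gap between the lines. IL22RA1, the private chain of the IL-22 receptor (ENSG00000142677, chromosome 1, 24119771 to 24143121), was at 3.60, 2.58 and 3.36 FPKM against 1.36, 1.09 and 1.18, a 2.63-fold lower level (-0.91 ± 0.12, limma adjusted p = 0.000310). IL10RB, the chain shared by the receptors for IL-10, IL-22, IL-26 and interferon lambda, fell less, from 11.4, 12.5 and 11.8 FPKM to 9.21, 7.88 and 9.70 (-0.38 ± 0.083, limma adjusted p = 0.00589). It shares 38.1% of its exon bases with a readthrough gene.

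IL10RA, the private chain of the IL-10 receptor, was at 0.613, 1.11 and 0.716 FPKM in LoVo and 0.590, 1.00 and 0.846 in LoVo-HM. The lines overlapped fully (0.00 ± 0.14, limma adjusted p = 0.985). IL20RB was at 0.472, 0.958 and 0.420 FPKM against 0.777, 0.293 and 0.554, with overlapping lines (-0.07 ± 0.17, limma adjusted p = 0.777). At these levels the libraries could not have shown a small difference.

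Within the IL-17 receptor family the chains behaved differently. IL17RE, the chain that binds the epithelial cytokine IL-17C (ENSG00000163701, chromosome 3, 9902612 to 9916402), was at 5.11, 5.06 and 4.65 FPKM in LoVo and at 1.81, 1.95 and 1.52 in LoVo-HM. The replicates were tight and far apart, and the mean fell 2.81-fold from 4.94 ± 0.249 to 1.76 ± 0.217 FPKM (-1.11 ± 0.091, limma adjusted p = 2.02e-05). IL17RC, the next gene on the same strand, which binds IL-17A and IL-17F, was at 9.44, 8.07 and 9.22 FPKM against 7.34, 8.21 and 6.26. Its lines overlapped and it did not pass (-0.27 ± 0.10, limma adjusted p = 0.0596), although it did without LoVo replicate 2 (0.0487) or LoVo-HM replicate 2 (0.0270). Of the other neighbours, JAGN1 upstream (-0.09 ± 0.092, limma adjusted p = 0.443) and CRELD1 downstream (-0.23 ± 0.17, limma adjusted p = 0.311) did not pass either. The libraries of the lines overlapped for JAGN1, IL17RC and CRELD1, unlike those of the detected genes of the IL-1 receptor cluster. Whether the differences of these neighbours and that of IL17RE are unequal was not tested.

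IL17RA, the chain common to the family, was at 4.96, 4.59 and 5.07 FPKM in LoVo and 4.12, 4.17 and 3.68 in LoVo-HM. Its difference was the smallest that passed (-0.24 ± 0.079, limma adjusted p = 0.0386), and it passed in only 1 of the 6 fits that leave out a library, the one without LoVo replicate 2. The adjusted p in the others ran from 0.0518 to 0.108, and it was 0.0595 with libraries scaled to the same total, 0.138 after quantile normalization and 0.0588 without a filter. IL17RB, which binds IL-25, was the highest receptor of all 41, at 20.1, 19.2 and 20.8 FPKM in LoVo and 21.3, 19.0 and 22.1 in LoVo-HM (0.05 ± 0.068, limma adjusted p = 0.595). IL17RD, a relative that also dampens FGF signalling, was at 3.02 ± 0.298 and 3.36 ± 0.306 FPKM (0.12 ± 0.095, limma adjusted p = 0.358). The libraries of the 2 lines overlapped for both of these genes.

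Since a receptor needs all of its chains, 31 textbook chain combinations were read against the level of 0.5 FPKM, taking the lowest chain of each. All chains reached it for 16 receptors in LoVo and for 14 in LoVo-HM. The 14 were complete in both lines and comprised the receptors for IL-1, IL-6, IL-10, IL-11, IL-22, IL-26, IL-27 and interferon lambda, the IL-4 and IL-13 receptor, the 3 IL-17 receptor pairs, and both forms of the IL-20 and IL-24 receptor. The 2 complete in LoVo alone were the IL-36 receptor, through IL1RL2 (0.548 and 0.241 FPKM), and the form of the IL-4 receptor that uses IL2RG (0.549 and 0.0505 FPKM). Both sat just above the level in LoVo, and IL6R at 0.510 FPKM was just above it in LoVo-HM, so these assignments turn on small amounts.

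Among the 15 receptors complete in neither line, a chain was listed at 0 in both lines for those of IL-18 (IL18RAP), IL-33 (IL1RL1), IL-12 and IL-23 (IL12RB1), IL-31 (IL31RA), IL-5 (IL5RA and CSF2RB), IL-3 (CSF2RB), LIF (LIFR) and TSLP (CRLF2). LoVo, in which IL18 was high, thus had transcript of the binding chain IL18R1 but none listed for its accessory chain. OSMR, the private chain for oncostatin M, was at 0.299 FPKM in LoVo and 0.232 in LoVo-HM. In 12 of the 14 receptors complete in both lines the lowest chain was the same gene in each line. Its mean was lower in LoVo-HM for 11 of the 12, the exception being IL10RA of the IL-10 receptor (0.813 and 0.814 FPKM). The 12 receptors rest on 10 distinct lowest chains, as IL17RA and IL20RB recur. IL20RB, the lowest chain of both IL-20 and IL-24 receptor forms, did not pass the test. The 11 were counted by direction alone, and the median difference of all tested rows was 0.003.

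**Figure D4:**
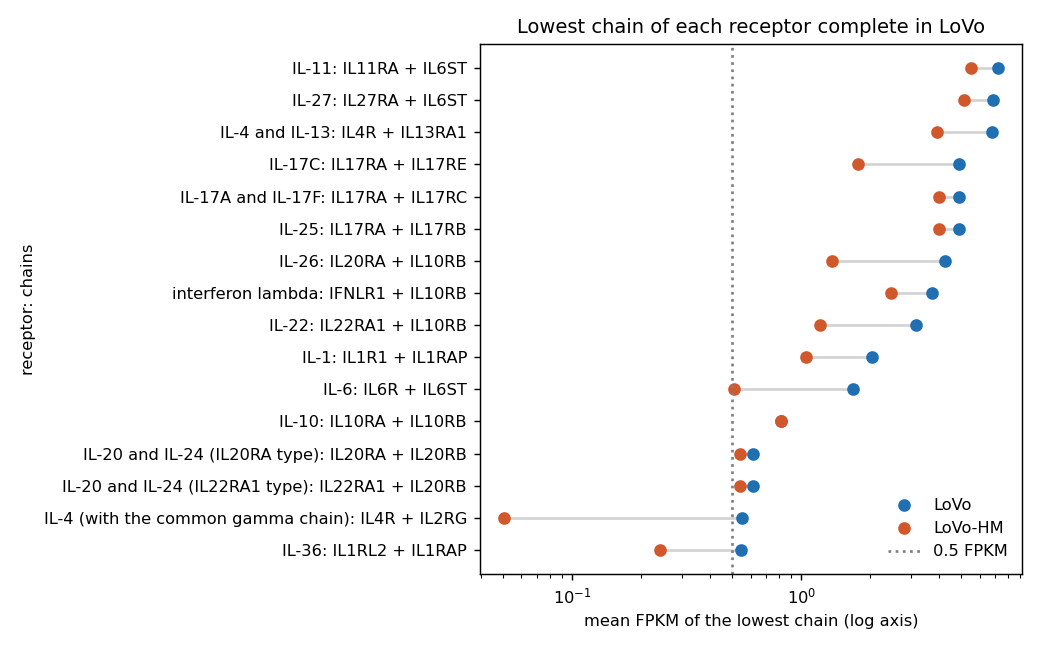
Mean FPKM (log axis) of the lowest chain of each of the 16 receptors complete in LoVo, with LoVo and LoVo-HM joined by a line and 0.5 FPKM dotted. Different genes are joined for the IL-4 and IL-13 receptor (IL13RA1 in LoVo, IL4R in LoVo-HM) and the IL-17C receptor (IL17RA in LoVo, IL17RE in LoVo-HM). The widest gaps are those of the IL-4 receptor form with IL2RG (0.549 and 0.0505 FPKM) and of IL-6 (1.68 and 0.510 FPKM).

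Promoter sequences were read from RefSeq (GRCh38.p14) as the 250 bases before the start nearest to the annotated gene start, and 30 of the 33 members at 0.5 FPKM or more in either line matched (all but IL15, IL17RA and IL18). The starts behind the windows printed here lie within 306 bases of the annotated gene start. Those of IL18R1 (44267 bases), IL1R1 (40060), IL20RB (11753), IL23A (4710), IL10RA (3597), IL11RA (1483), IL17D (965), IL2RG (531) and IL18BP (368) belong to starts farther away. Because many members were lower together, the windows were searched on both strands for an NF-kB motif (GGG, any 2 bases, TTTCC), an AP-1 motif (TGANTCA) and a STAT motif (TTCNNNGAA). The NF-kB letters were found in 3 of the 30 windows (10.0%) and in 1.73% of 35116 RefSeq windows of the same length. The 35116 windows were not limited to expressed genes or to 1 per gene, as the members' windows were, so the shares are not strictly comparable. All 3 windows with a match belonged to genes that fell, but so did 17 of the 30 windows, and the share of 10.0% rests on these 3 genes. These were IL32, IL27RA and IL4R, shown here because they carry the letters, which are in capitals. The letters begin 99, 68 and 50 bases before the RefSeq start. For IL32 and IL4R that start lies 106 and 306 bases inside the annotated gene, so both matches lie past the annotated gene start. In IL4R the match is on the opposite strand.
IL32, chr16:3065153-3065402, plus strand: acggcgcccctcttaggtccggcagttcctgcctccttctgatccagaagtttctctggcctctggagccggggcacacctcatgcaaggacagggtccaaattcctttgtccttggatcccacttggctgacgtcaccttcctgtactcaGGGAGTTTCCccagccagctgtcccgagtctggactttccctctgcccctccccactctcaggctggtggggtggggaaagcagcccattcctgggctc
IL27RA, chr19:14031512-14031761, plus strand: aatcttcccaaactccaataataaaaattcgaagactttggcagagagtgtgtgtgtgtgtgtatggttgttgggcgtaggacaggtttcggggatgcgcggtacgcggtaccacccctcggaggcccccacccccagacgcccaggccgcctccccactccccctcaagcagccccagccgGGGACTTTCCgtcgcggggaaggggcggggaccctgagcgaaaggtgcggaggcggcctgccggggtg
IL4R, chr16:27313724-27313973, plus strand: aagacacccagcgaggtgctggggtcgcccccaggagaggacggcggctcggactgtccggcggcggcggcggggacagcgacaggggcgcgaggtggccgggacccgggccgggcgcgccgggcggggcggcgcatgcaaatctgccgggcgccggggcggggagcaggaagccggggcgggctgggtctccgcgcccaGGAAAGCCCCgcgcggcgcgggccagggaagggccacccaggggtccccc
The AP-1 letters were in 13.3% of the members' windows and the STAT letters in 10.0%, against 6.57% of all windows for each. With 30 windows these shares rest on 4 and 3 genes. Of the 4, IL23A and IL10RA are among those with distant starts, and of the 3, IL17D is.

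The 3 receptor genes with falls of at least 2-fold are shown for contrast, since none of the 3 motifs was present in their windows. Their windows held 9, 13 and 2 CpG dinucleotides, where the median over all windows was 11.
IL1R2, chr2:101991710-101991959, plus strand: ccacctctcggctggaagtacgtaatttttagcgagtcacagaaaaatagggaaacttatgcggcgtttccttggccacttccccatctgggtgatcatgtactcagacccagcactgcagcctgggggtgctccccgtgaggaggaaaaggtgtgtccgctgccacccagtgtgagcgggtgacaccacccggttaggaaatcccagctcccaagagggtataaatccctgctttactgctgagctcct
IL20RA, chr6:137044966-137045215, minus strand: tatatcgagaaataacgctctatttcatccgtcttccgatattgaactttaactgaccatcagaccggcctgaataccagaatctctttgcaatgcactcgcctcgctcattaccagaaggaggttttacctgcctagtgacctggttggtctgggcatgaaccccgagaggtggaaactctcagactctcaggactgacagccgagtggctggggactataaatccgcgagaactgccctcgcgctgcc
IL17RE, chr3:9902362-9902611, plus strand: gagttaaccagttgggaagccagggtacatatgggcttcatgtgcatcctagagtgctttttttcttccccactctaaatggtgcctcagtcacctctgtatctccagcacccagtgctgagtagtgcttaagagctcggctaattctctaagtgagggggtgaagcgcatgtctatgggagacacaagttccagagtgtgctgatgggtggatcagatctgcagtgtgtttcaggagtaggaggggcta
A match or its absence describes these letters in these windows and says nothing of whether a factor binds there.

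Related cytokines, receptors and binding partners whose symbols do not start with IL were often too low to test. Of 29 such genes 12 were tested, of which 9 fell and 3 did not pass, with a median of -0.40, where 23.1% of all tested rows fell. LEPR, the leptin receptor of the gp130 type, fell from 3.23 ± 0.706 to 0.960 ± 0.185 FPKM (-1.10 ± 0.14, limma adjusted p = 0.000254), and CSF1, the macrophage growth factor, from 3.51 ± 0.448 to 1.35 ± 0.236 (-0.94 ± 0.11). SDC1, the cell surface proteoglycan syndecan, fell from 15.3 ± 0.502 to 11.1 ± 0.358 FPKM (-0.42 ± 0.058). The interferon lambda chain IFNLR1, which uses IL10RB, fell from 3.72 ± 0.276 to 2.46 ± 0.355 FPKM (-0.45 ± 0.10).

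The Janus kinase and STAT genes downstream of many of these receptors moved in both directions, with a share of falls near that of all rows. Of 26 tested, 6 fell, 4 rose and 16 did not pass, with a median of 0.09, where 23.1% of all tested rows fell and 21.8% rose. STAT6, the factor activated by IL-4 and IL-13, fell from 29.8 ± 1.77 to 16.2 ± 1.72 FPKM (-0.84 ± 0.081, limma adjusted p = 5.38e-05). STAT5A fell from 17.5 ± 1.02 to 9.14 ± 0.714 FPKM (-0.87 ± 0.073) and the phosphatase PTPN6 from 15.2 ± 0.774 to 7.11 ± 0.687 (-1.0 ± 0.079). STAT3, the main factor of IL-6 and IL-22 signalling, fell less, from 35.6 ± 2.41 to 26.9 ± 1.72 FPKM (-0.39 ± 0.068, limma adjusted p = 0.00167). The feedback inhibitor SOCS5 rose from 5.93 ± 0.247 to 10.5 ± 0.738 FPKM (0.73 ± 0.073). SOCS3, the inhibitor that STAT3 induces, was at 2.80 ± 0.110 and 3.17 ± 0.295 FPKM and did not pass (0.13 ± 0.087, limma adjusted p = 0.258), and the kinases JAK1, JAK2, JAK3 and TYK2 did not pass.

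Of 32 tested genes that process IL-1 family ligands or carry IL-1 and IL-17 signals, 18 fell, 5 rose and 9 did not pass, with a median of -0.38 (all tested rows: 23.1% fell, 21.8% rose). ZC3H12A, an RNase that degrades cytokine transcripts and restrains IL-17 signalling, fell from 28.0 ± 2.11 to 2.71 ± 0.305 FPKM (-2.97 ± 0.084, limma adjusted p = 2.17e-08). CAPN1, a calpain of the type that cleaves the IL-1 alpha precursor, fell from 138 ± 5.55 to 55.6 ± 2.37 FPKM (-1.29 ± 0.049). MYD88, the adaptor of IL-1 and IL-18 receptors, was named after its value was seen and fell from 39.6 ± 5.09 to 17.8 ± 2.19 FPKM (-1.11 ± 0.11, limma adjusted p = 6.04e-05). ADAM10, a sheddase of cytokine receptors, rose from 11.1 ± 0.516 to 29.9 ± 1.49 FPKM (1.36 ± 0.061).

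Genes that epithelia induce in response to IL-1, IL-17 or IL-22 had 11 tested members of 32, of which 9 fell, 1 rose and 1 did not pass, with a median of -1.42 (all tested rows: 23.1% fell, 21.8% rose). This list shares several chemokines with sets already known to be lower in these libraries, so its direction is not independent evidence. CCL20, a chemokine for dendritic cells and IL-17 producing T cells, fell from 6.31 ± 1.35 to 0.147 ± 0.128 FPKM (-2.66 ± 0.15, limma adjusted p = 2.25e-06), and CXCL3 from 8.84 ± 1.60 to 0.834 ± 0.0855 (-2.41 ± 0.12). CXCL1 and CXCL8 fell by 3.75 and 3.36 on the log2 scale. The member that rose was PTGS2, the inducible cyclooxygenase, from 14.5 ± 0.464 to 28.0 ± 1.23 FPKM (0.91 ± 0.056, limma adjusted p = 3.27e-06), named after its value was seen.

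**Figure D5:**
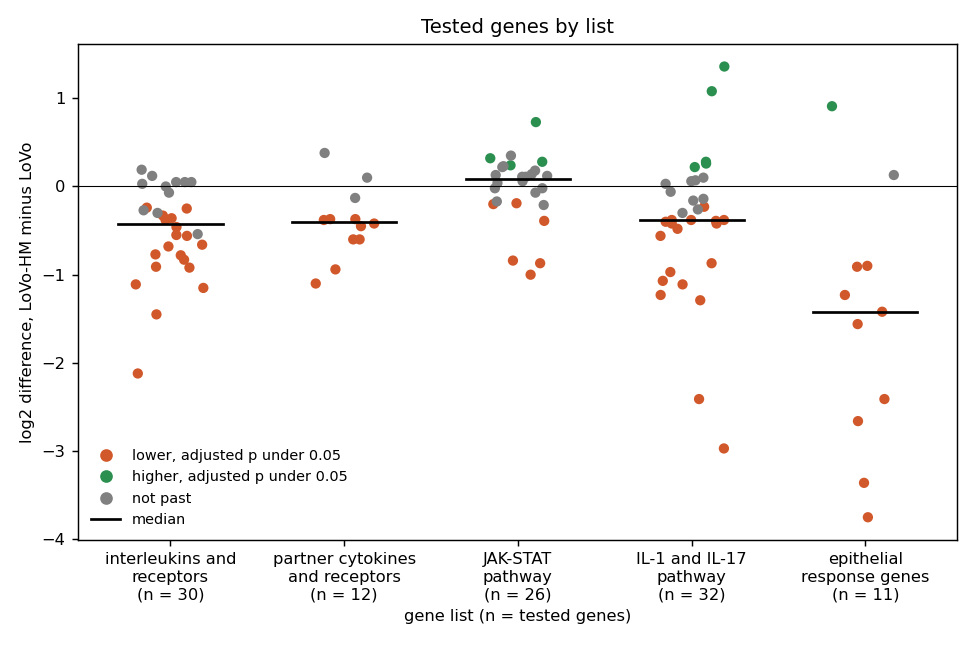
Differences between the lines (LoVo-HM minus LoVo, log2(FPKM + 1) scale) of every tested gene in 5 lists, with a bar at each median; SOCS3, NFKBIZ and SIGIRR each belong to 2 lists. Points lie mostly below 0 for the members (median -0.42) and the epithelial response genes (median -1.42) and on both sides of 0 for the JAK-STAT genes (median 0.09).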

How the data were processed

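Messenger RNA of LoVo and LoVo-HM was extracted with Trizol and made into TruSeq libraries, per the labels' protocols. The authors deposited FPKM values, 1 column per library. Per the submitters' processing notes, GRCh38 was the build. No aligner, counter, annotation or strand setting is named in the sources used here. Low values showed no steps worth 1 read (among 1554 rows under 0.3 FPKM the fullest 0.05-wide log2 bin had 3.35% of ratios), so depth is unknown and no count model was used.

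Values were used as deposited, as log2(FPKM + 1). Rows with a mean of at least 0.5 FPKM were compared with limma 3.58.1 in R 4.3.3 (variance trend, two-sided, no covariates). On simulated data of 14487 genes for this comparison, 10%, 48%, 88% and 100% of changes of 0.25, 0.5, 1 and 2 log2 units were recovered, with 2 false calls among 125. Far fewer genes were changed there than in the data, where 6508 rows passed, so these rates may not carry over to the real comparison.

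Every member reaching 0.5 FPKM in either line was named, and up to 4 genes per list by smallest p, others as stated. IFNLR1, STAT3, SOCS3, JAK1, JAK2, JAK3 and TYK2 were named outside this rule. One gene that this rule picks is not reported here. The members and lists were chosen with earlier results of these data known. Alternatives were other pseudocounts, filters, scalings and variance models, leaving out each library, and a block for the replicate number. Positions are from GENCODE 29, which has the same build.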

Additional observations from a re-analysis of the deposited data

How the results depend on the processing

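The count of members that fell was 19 of 30 tested. Over the alternatives it ran from 15 of 19 tested (minimum mean of 2 FPKM) to 21 of 33 (0.5 FPKM in either line). It ran from 16 to 19 when each library was left out. Over all rows 2852 of 11669 fell with the minimum of 2 FPKM and 3527 of 15112 with 0.5 FPKM in either line. The 21 members include IL18R1 and IL2RG, which the filter in either line lets in only through LoVo, where they are higher. The count of members that rose was 0, and 1 (IL7R) without a filter on low values. The counts over all genes and over the 4 other lists stayed within 1.5 times their values. Of 499 combinations of a tested member and an alternative, 465 kept direction and side of the threshold, 21 lost the call, 4 gained it and 9 turned sign. The sign changes all came from leaving out 1 library, in genes that did not pass: IL10RA (-0.08 to 0.12), IL18BP (-0.08 to 0.20), IL1RAPL1 (-0.06 to 0.14) and IL20RB (-0.17 to 0.08). The lost calls were those of IL11RA, IL13RA1 and IL17RA; the cause was not tested. Same-numbered libraries did not deviate together (r = -0.00701, 0.0215 and 0.0264), and the labels do not say whether they were handled together. With the replicate number as a block 18 members fell, IL11RA and IL17RA no longer passing and IL15 passing (adjusted p = 0.0481). Without read depth, low values such as those of IL20RB and IL2RG cannot be given a counting error.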
